A study of Mus musculus with 3 samples.

Results

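The 62 genes described here encode the enzymes that remove superoxide and peroxides, the thioredoxin and glutaredoxin proteins, the enzymes that make, recycle and use glutathione, the heme oxygenases and quinone reductases, and the regulators Nfe2l1, Nfe2l2, Keap1 and Park7. They were chosen by gene symbol rather than by value from the 46073 Ensembl genes of the deposited RNA table. Earlier results of these data were known when the choice was made. All 62 are protein coding in RefSeq. The RNA came from the medial prefrontal cortex, a frontal area of the cerebral cortex, of naïve C57BL/6 mice aged 3 months. The series has 1 RNA sample, 1 sample of DNA enriched for methylated cytosine and 1 of input DNA. All are from naïve mice of that strain and age, with no second genotype or treatment, and only the RNA was analysed here. The design text gives 3 replicates for RNA, but the table holds 1 value per gene. Every comparison below is therefore between genes of 1 table, with no replicate check, no error and no p-value. Values are FPKM (fragments per kilobase of transcript, scaled to a fixed number of mapped fragments), a level per length. A gene is called detected at 1 FPKM or more. The sequencing depth is unknown.

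As background, superoxide dismutases turn superoxide into hydrogen peroxide, which catalase, the glutathione peroxidases and the peroxiredoxins then reduce. Glutathione peroxidases draw electrons from glutathione and most peroxiredoxins draw them from thioredoxin, and both carriers are recharged with NADPH by glutathione reductase (Gsr) and the thioredoxin reductases. Keap1 holds the transcription factor Nrf2 (gene Nfe2l2) for degradation, and Nrf2 that escapes binds antioxidant response elements of genes for glutathione synthesis and detoxification. In the brain, astrocytes are known to supply neurons with the precursors of glutathione.

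Of the 62 genes 51 (82.3%) were detected, against 31.5% of all 46073 rows and 58.6% of the 20635 protein-coding rows. At 10 FPKM or more there were 33 of them (53.2%), against 14.6% of all rows and 29.1% of protein-coding rows. At 100 FPKM or more there were 9 (14.5%), against 1.57% of all rows and 2.82% of protein-coding rows. The median of the 62 was 11.8 FPKM, beside 0.0414 FPKM over all rows and 2.59 FPKM over protein-coding rows. Levels were concentrated in few genes. Gpx4, Prdx5, Sod1, Gstm5, Prdx6 and Gstm1 together held 50.3% of the summed FPKM of the 62. The 11 undetected genes were 8 glutathione S-transferases (Gsta1, Gsta2, Gsta3, Gstm3, Gsto2, Gstp2, Gstp3 and Gstt4) and the peroxidase genes Gpx2, Gpx5 and Gpx6. Among the 40 genes that are not glutathione S-transferases, 37 were detected.

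**Figure D1:**
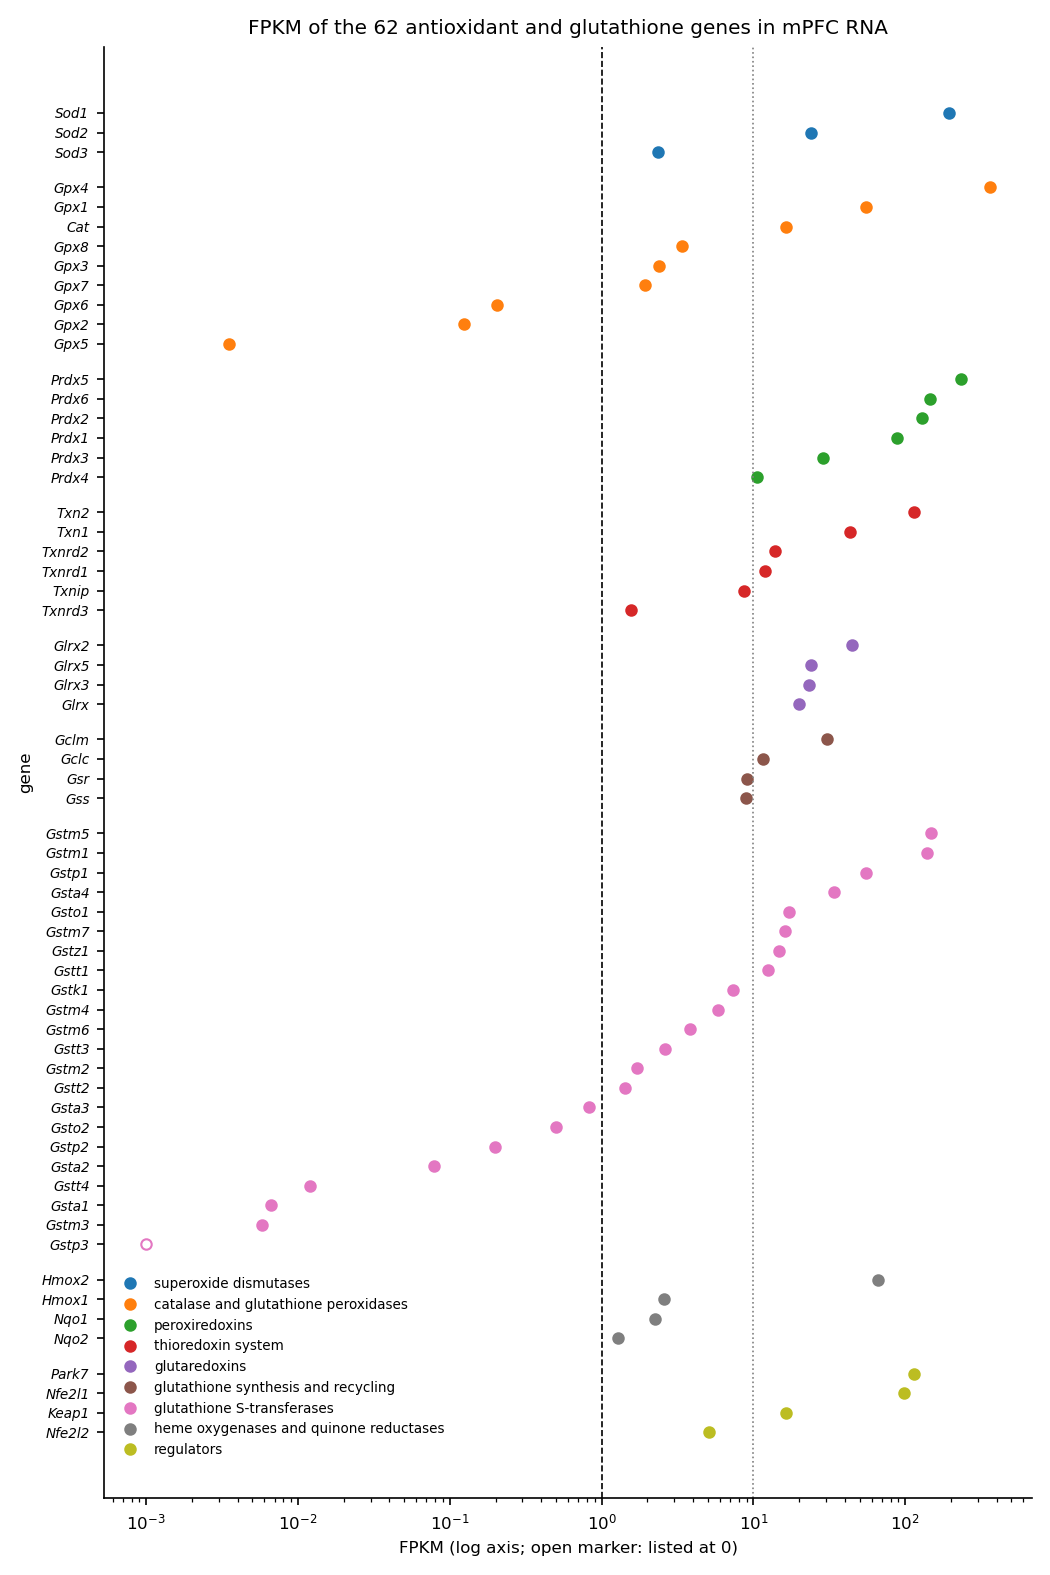
FPKM of each of the 62 genes on a log axis, 1 point per gene, grouped by role; the dashed line marks 1 FPKM and the dotted line the median of detected protein-coding genes, 9.86 FPKM. All points of the peroxiredoxins lie at 10.6 FPKM or above, while the glutathione S-transferases run from 148 FPKM down to Gstp3, which is listed at 0 and drawn as an open marker at the left.

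Sequence around the gene starts was examined first for the antioxidant response element, since it is the site through which Nrf2 is known to act on many of these genes. RefSeq promoter windows on GRCm38.p6, the assembly that mm10 names, reach from 250 bases before to 50 bases after an annotated start, and matched 55 of the 62 genes. The element's core was searched as TGACNNNGC on both strands. A gene with several windows was counted if any of them held it. It was found in 8 of the 55 genes (14.5%), beside 15.1% of all 16564 protein-coding genes with a window, so the share among the antioxidant genes was close to the background. The 8 were Sod1, Gstm5, Prdx1, Gclm, Gstm7, Txnrd1, Nfe2l2 and Gsta3. Of these only Gsta3 was undetected, at 0.828 FPKM. The core was thus in 7 of the 44 detected genes with a window (15.9%) and 1 of the 11 undetected ones (9.09%). Among protein-coding genes with a window it was in 16.9% of the detected and 12.5% of the undetected, so nothing particular to these genes is read from this. Sites of textbook Nrf2 targets, of Nfe2l2 itself and of the undetected gene are shown with 10 bases on each side, 5′ to 3′ on the strand of the gene and with the core in capitals; a core that starts with GC lies on the other strand.
Prdx1: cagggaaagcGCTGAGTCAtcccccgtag
Gclm: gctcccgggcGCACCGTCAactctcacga
Txnrd1: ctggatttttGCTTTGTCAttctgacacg
Nfe2l2: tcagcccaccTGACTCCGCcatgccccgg
Gsta3: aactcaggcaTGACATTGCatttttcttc

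These stretches lie at chr4:116685456-116685484 for Prdx1, chr3:122245413-122245441 for Gclm, chr10:82859104-82859132 for Txnrd1, chr2:75704885-75704913 for Nfe2l2 and chr1:21240454-21240482 for Gsta3. The cores began 133, 134, 92, 240 and 121 bases before the start of their windows' transcripts. Txnrd1 has 3 windows, and the stretch shown belongs to a start inside the gene, which spans chr10:82833951-82897724. Levels of these genes were 88.0 FPKM for Prdx1, 30.7 FPKM for Gclm, 11.98 FPKM for Txnrd1, 5.08 FPKM for Nfe2l2 and 0.828 FPKM for Gsta3. Genes that match the core pattern thus differed widely in level, and their sites differ in the letters that the pattern leaves free. A match is a description of the letters, not evidence of binding, and elements farther from the start were outside these windows.

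A related element that holds an AP-1 site was searched as TGANTCAGC on both strands after the sequences were seen. It allows any base where the core TGACNNNGC requires C, so a match need not hold that core. This element was rarer, at 1.31% of protein-coding genes with a window. Among the 55 genes it was in Prdx1, Gstp1 and Gstp2. The windows of Gstp1 and Gstp2 hold no TGACNNNGC core. The neighbouring genes Gstp1 and Gstp2 encode pi class transferases, and their windows are shown because the 2 genes share this element but not their level. Both lie on the minus strand, at chr19:4037863-4038162 for Gstp1 and chr19:4042172-4042471 for Gstp2, and capitals mark the element.
Gstp1: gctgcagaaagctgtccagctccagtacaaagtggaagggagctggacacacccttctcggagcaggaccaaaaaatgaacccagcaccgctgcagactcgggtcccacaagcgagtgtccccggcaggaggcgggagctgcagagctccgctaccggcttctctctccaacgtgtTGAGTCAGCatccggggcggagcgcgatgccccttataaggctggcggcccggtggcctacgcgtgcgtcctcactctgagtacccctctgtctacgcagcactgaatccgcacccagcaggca
Gstp2: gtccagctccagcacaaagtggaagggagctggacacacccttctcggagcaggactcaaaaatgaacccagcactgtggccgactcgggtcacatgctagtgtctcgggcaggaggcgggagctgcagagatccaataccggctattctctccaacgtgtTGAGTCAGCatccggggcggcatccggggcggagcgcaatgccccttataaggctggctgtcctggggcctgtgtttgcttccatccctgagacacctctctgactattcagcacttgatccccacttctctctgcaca

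The windows were identical at 86.2% of aligned bases (243 identical, 39 mismatched), a share that leaves out 36 gap bases. The element began 74 bases before the start in Gstp1 and 89 bases before it in Gstp2. Gstp1 was at 54.9 FPKM and Gstp2 at 0.197 FPKM, a ratio of 278. CpG dinucleotides stood at 0.682 of the number expected from base composition in the Gstp1 window and at 0.471 in that of Gstp2. The transcripts of the 2 genes are alike as well, so the division of reads between them is uncertain.

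Among the superoxide dismutases the cytosolic enzyme led. Sod1, the copper-zinc enzyme of the cytosol (chromosome 16, 90220762 to 90226333, GRCm38), was at 195 FPKM, rank 226 among protein-coding rows. Sod2, the manganese enzyme of mitochondria (chromosome 17, 13007839 to 13018119), was at 23.9 FPKM, 8.15-fold lower. Sod3, the secreted enzyme, was at 2.34 FPKM, 10.2-fold below Sod2 and 83.2-fold below Sod1. Ccs, the chaperone that loads copper into Sod1, was at 11.8 FPKM.

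Of catalase and the 8 glutathione peroxidase genes, 6 of 9 (66.7%) passed 1 FPKM, beside 58.6% of all protein-coding rows. The median was 2.40 FPKM. Gpx4, which reduces lipid hydroperoxides inside membranes and is known to protect against ferroptosis, was the highest of all 62 genes at 361 FPKM, rank 75 among protein-coding rows (chromosome 10, 80047166 to 80056439). Gpx1, the widely expressed peroxidase of cytosol and mitochondria, was at 54.9 FPKM, 6.57-fold below Gpx4. Catalase (Cat), the peroxisomal enzyme, was at 16.4 FPKM, 3.36-fold below Gpx1 and 22.1-fold below Gpx4. The enzymes of the endoplasmic reticulum, Gpx8 and Gpx7, were at 3.40 and 1.92 FPKM, and the secreted Gpx3 at 2.40 FPKM. Gpx6, an olfactory form, was at 0.205 FPKM, the intestinal form Gpx2 at 0.124 FPKM and the epididymal form Gpx5 at 0.00351 FPKM. The row Gpx2-ps1, a pseudogene of Gpx2, was listed at 0.240 FPKM, so the little signal of Gpx2 is uncertain.

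All 6 peroxiredoxins were detected, and their median of 109 FPKM was the highest of the 9 role groups. Prdx5, found in mitochondria, peroxisomes and cytosol, was at 232 FPKM (chromosome 19, 6906697 to 6910106). Prdx6, the form with 1 active cysteine that works with glutathione, was at 146 FPKM, 2.66-fold above Gpx1. The cytosolic Prdx2 and Prdx1 were at 130 and 88.0 FPKM, within 1.47-fold of each other. Prdx3, of mitochondria, was at 28.9 FPKM, 8.04-fold below Prdx5, and Prdx4, of the endoplasmic reticulum, at 10.6 FPKM. Rows named as copies of these genes were low, with Prdx2-rs3 at 0.0600 FPKM and Prdx6-ps2 listed at 0. Srxn1, the sulfiredoxin that repairs overoxidised peroxiredoxins, was at 38.2 FPKM.

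In the thioredoxin system the mitochondrial carrier stood above the cytosolic one, opposite to the order of the dismutases. Txn2, of mitochondria, was at 114 FPKM and Txn1, of the cytosol, at 43.3 FPKM, a ratio of 2.63. Their reductases did not differ in this way, with Txnrd2 of mitochondria at 13.8 FPKM, Txnrd1 of the cytosol at 11.98 FPKM and a ratio of 1.16. Txnrd3, the form known from testis, was at 1.55 FPKM. Txn2 was 8.22-fold above Txnrd2, and Txn1 was 3.61-fold above Txnrd1. Txnip, which binds and inhibits thioredoxin, was at 8.61 FPKM, 5.03-fold below Txn1. The pseudogene row Txn-ps1 was at 0.0524 FPKM.

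The 4 glutaredoxins, which reduce disulfides formed with glutathione or carry iron-sulfur clusters, spanned a narrow range. Glrx2, with mitochondrial and other forms, was at 44.8 FPKM. Glrx5 and Glrx3, both tied to iron-sulfur clusters, were at 23.8 and 23.1 FPKM, within 1.03-fold. Glrx, the cytosolic enzyme, was at 19.8 FPKM, 2.26-fold below Glrx2.

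For glutathione itself, the modifier subunit of the rate-limiting ligase exceeded the catalytic one. Gclm, the modifier (chromosome 3, 122245487 to 122267215), was at 30.7 FPKM and Gclc, the catalytic subunit (chromosome 9, 77754535 to 77794489), at 11.6 FPKM, a ratio of 2.66. Gss, which adds glycine in the second step, was at 8.86 FPKM, and Gsr, which recycles oxidised glutathione, at 9.002 FPKM, 1.02 times Gss. Txnrd1 was 1.33 times Gsr, so the cytosolic reductases of both carriers were at similar levels in this table.

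**Figure D2:**
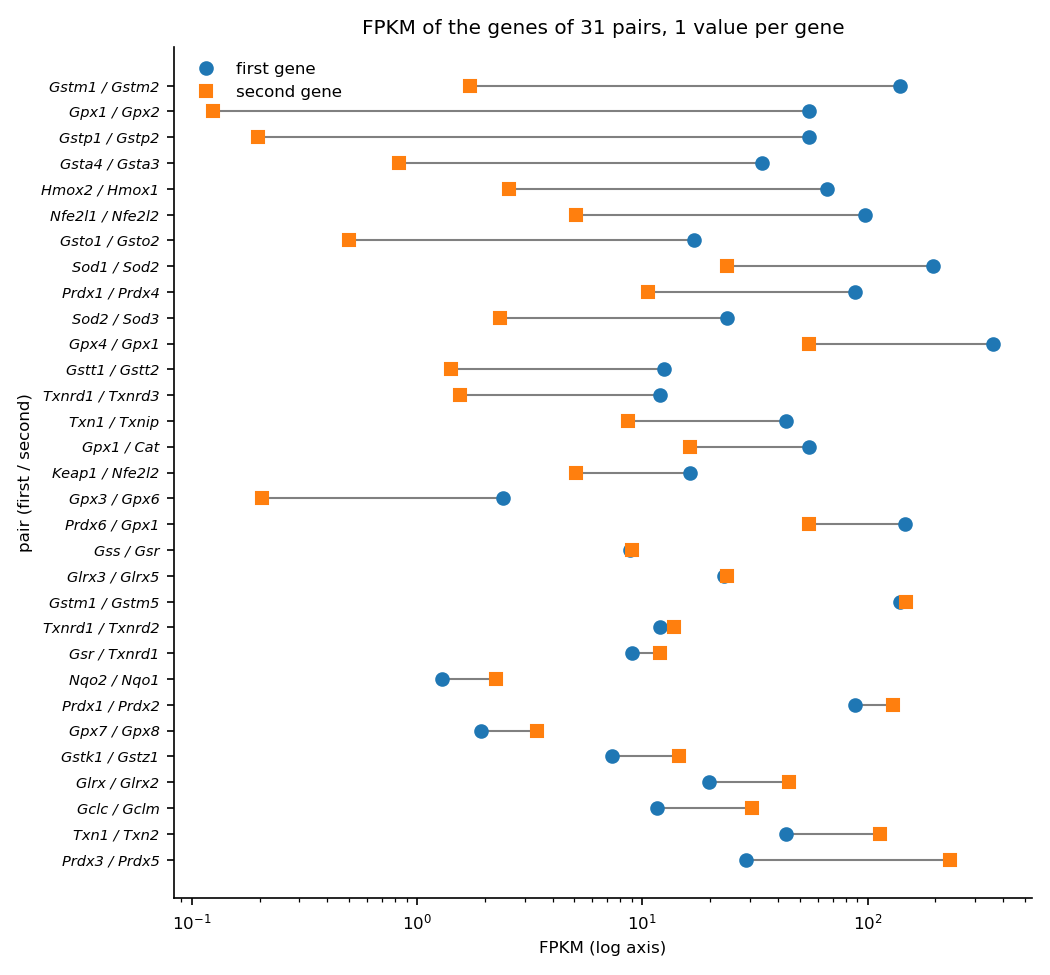
FPKM of the genes in 31 pairs on a log axis, ordered by the difference of log2(FPKM + 1), with the first gene of each pair as a circle and the second as a square. In 22 pairs the difference was 2-fold or more on that scale, with the circle to the right in 18 of them and the square in 4: Prdx3 / Prdx5, Txn1 / Txn2, Glrx / Glrx2 and Gclc / Gclm.

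Over the 31 pairs of paralogs or partners, 22 were apart by 2-fold or more after adding 1 to each FPKM. Adding 1 shrinks differences of low genes. The share among other pairs of genes was not computed, so the count describes these pairs and is not read as a trait of them. The 9 pairs within that limit included Gss and Gsr, Glrx3 and Glrx5, Gstm1 and Gstm5, Txnrd1 and Txnrd2, and Prdx1 and Prdx2. Gstk1, the kappa class transferase of mitochondria and peroxisomes, was at 7.31 FPKM, and Gstz1, the zeta class enzyme of tyrosine breakdown, at 14.6 FPKM. Gstz1 was 2.0002 times Gstk1 by plain FPKM, and after adding 1 to each value the pair fell within the limit.

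The 22 glutathione S-transferases, which join glutathione to reactive compounds, ran from 148 FPKM to a gene listed at 0. The median was 3.20 FPKM, and 14 (63.6%) passed 1 FPKM, near the 58.6% of all protein-coding rows. The mu class genes Gstm5 and Gstm1 were at 148 and 140 FPKM, within 1.06-fold, and held 62.4% of the summed FPKM of the 22. Gstp1 followed at 54.9 FPKM and Gsta4, the alpha class enzyme for the lipid peroxidation product 4-hydroxynonenal, at 33.9 FPKM (chromosome 9, 78191966 to 78209349). Gsto1, of the omega class, was at 17.0 FPKM, 34.0-fold above its neighbour Gsto2 at 0.4999 FPKM.

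Within the genomic clusters, neighbouring genes differed several-fold or more. The 7 Gstm genes lie in 149 kb of chromosome 3 (107895854 to 108045179). In the order of the chromosome they were at 148 FPKM for Gstm5, 16.2 for Gstm7, 3.80 for Gstm6, 0.00576 for Gstm3, 1.72 for Gstm2, 140 for Gstm1 and 5.80 FPKM for Gstm4. The high genes Gstm5 and Gstm1 are thus not neighbours, and the lowest lies between them. Gstm5 shares 360 bases with the non-coding 4933431E20Rik, listed at 34.4 FPKM. Reads shared by the similar Gstm transcripts may have been divided in ways that the table does not show.

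The other clusters each had 1 gene well above the rest. In the Gsta cluster of chromosome 9 (78191966 to 78347192), Gsta4 at 33.9 FPKM was followed by Gsta1 at 0.00665 and Gsta2 at 0.0782 FPKM. Gsta3, on chromosome 1, was at 0.828 FPKM, 40.9-fold below Gsta4. In the theta class cluster of chromosome 10 (75774117 to 75837419), Gstt3 was at 2.61, Gstt1 at 12.5, Gstt4 at 0.0120 and Gstt2 at 1.42 FPKM. In the pi class cluster of chromosome 19 (4035411 to 4059605), Gstp1 at 54.9 FPKM was followed by Gstp2 at 0.197 FPKM and by Gstp3, listed at 0. The pseudogene rows Gstm2-ps1 and Gstp-ps were listed at 0 too.

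**Figure D3:**
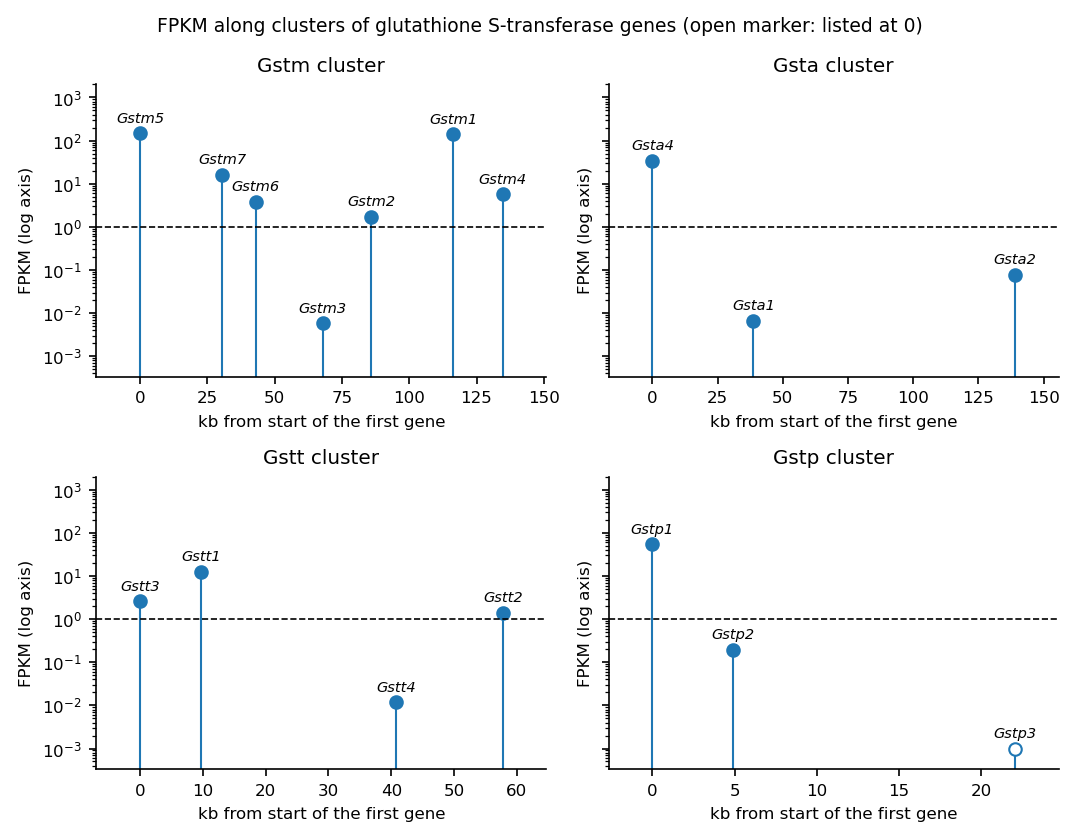
FPKM on a log axis against the distance in kb from the start of the first gene, for the Gstm, Gsta, Gstt and Gstp clusters, 1 point per gene, with 1 FPKM as a dashed line and an open marker for a gene listed at 0. Gstm5 and Gstm1 stand near 148 and 140 FPKM with 4 lower genes between them, and in each of the other panels 1 gene stands above the rest.

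Of the heme oxygenases and quinone reductases, Hmox2 stood well above the other three genes. Hmox2, the constitutive form (chromosome 16, 4726361 to 4766742), was at 65.9 FPKM and Hmox1, the inducible form and a classic Nrf2 target, at 2.56 FPKM, a ratio of 25.7. The quinone reductase Nqo1, another Nrf2 target, was at 2.24 FPKM and its paralog Nqo2 at 1.29 FPKM, a ratio of 1.74. All 4 were detected. In RefSeq, Nqo2 lies wholly within the span of Serpinb6a, at 20.9 FPKM, and Hmox2 shares 1282 bases with Cdip1, at 93.0 FPKM, so their values carry an uncertainty that the table cannot resolve. No source used here says whether reads were assigned by strand.

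Among the regulators, Nfe2l2 was the lowest. Park7, the redox-sensitive chaperone also called DJ-1 and mutated in a familial form of Parkinson's disease, was at 115 FPKM (chromosome 4, 150897133 to 150909921). Nfe2l1, the factor Nrf1 that is known for control of proteasome genes, was at 97.7 FPKM, 19.2-fold above Nfe2l2 at 5.08 FPKM (chromosome 2, 75675513 to 75704663). Keap1, the inhibitor of Nrf2, was at 16.3 FPKM, 3.21-fold above Nfe2l2. RNA levels do not report the amount of Nrf2 protein, which is set largely by its degradation.

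The surrounding pathway was described with 8 lists. Their detected counts stand beside the 58.6% of all protein-coding rows that passed 1 FPKM. Nrf2 partners and degradation genes passed 1 FPKM in 11 of 13 cases (median 10.1 FPKM). The autophagy receptor Sqstm1, which competes for Keap1, was at 334 FPKM, the ubiquitin ligase scaffold Cul3 at 56.0 and its partner Rbx1 at 38.8 FPKM. The lowest were the small Maf gene Maff at 0.291 FPKM and the blood cell factor Nfe2 at 0.00227 FPKM.

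All 12 genes of NADPH supply, which feeds both reductases, were detected, within a range from 4.22 to 29.3 FPKM and with a median of 15.4 FPKM. The mitochondrial Me3 at 29.3 and Idh2 at 26.2 FPKM and the kinase Nadk at 18.9 FPKM led, and the folate enzyme Mthfd1 at 8.07 and the mitochondrial transhydrogenase Nnt at 4.22 FPKM were lowest. Genes of glutathione supply and breakdown passed 1 FPKM in 13 of 15 cases (median 6.67 FPKM). Ggt7, a member of the gamma-glutamyltransferase family, was at 50.2 FPKM, the amino acid transporter chain Slc3a2 at 31.2 and the peptidase Lap3 at 30.6 FPKM. Ggt5 and the dipeptidase Dpep1 were lowest, at 0.845 and 0.0222 FPKM. Slc7a11, the cystine transporter that pairs with Slc3a2, was at 4.84 FPKM.

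The other glutathione-using enzymes had a median of 23.8 FPKM and 10 of 11 at 1 FPKM or more. Hagh at 94.0 FPKM, a glyoxalase, the microsomal transferase Mgst3 at 49.3 and the esterase Esd at 44.1 FPKM led, with Gstcd at 1.52 and Mgst2 at 0.471 FPKM lowest. Oxidised protein repair and chaperone genes had a median of 14.2 FPKM, and all 12 passed 1 FPKM. Srxn1 at 38.2, Txndc17 at 21.7 and Txnl1 at 19.3 FPKM led, and Nxn at 2.98 and the methionine sulfoxide reductase Msrb3 at 2.16 FPKM were lowest.

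Selenium is needed for 7 of the 62 genes, Gpx1, Gpx2, Gpx3, Gpx4 and the 3 thioredoxin reductases, whose products hold selenocysteine in the active site. Their median was 11.98 FPKM, and Gpx2 was the undetected one. All 10 genes of selenocysteine synthesis and selenium supply were detected (median 8.06 FPKM). Selenop, the selenium carrier, was at 90.8 FPKM, Pstk, a kinase of the synthesis, at 14.5 and Sephs2, which makes the selenium donor, at 11.2 FPKM. Secisbp2, which reads the selenocysteine signal, was at 4.35 and the synthase Sepsecs at 2.56 FPKM. Of 15 other selenoproteins 12 were detected (median 16.1 FPKM). Selenow at 554 FPKM was 1.54-fold above Gpx4, and Selenof at 117 and Selenok at 92.0 FPKM followed, while the deiodinase Dio3 was at 0.647 FPKM and Dio1 was listed at 0.

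Genes that produce oxidants had the lowest median of the 8 lists, 1.18 FPKM. Of these, 7 of 13 were detected (53.8%), near the 58.6% of all protein-coding rows. The membrane subunit Cyba was at 6.87 FPKM, the neuronal nitric oxide synthase Nos1 at 4.31 and Ncf1 at 2.04 FPKM. The lowest were Duox2 at 0.0121 and Nox3 at 0.00917 FPKM. Cybb, the catalytic subunit that pairs with Cyba in phagocytes, was at 0.135 FPKM.

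**Figure D4:**
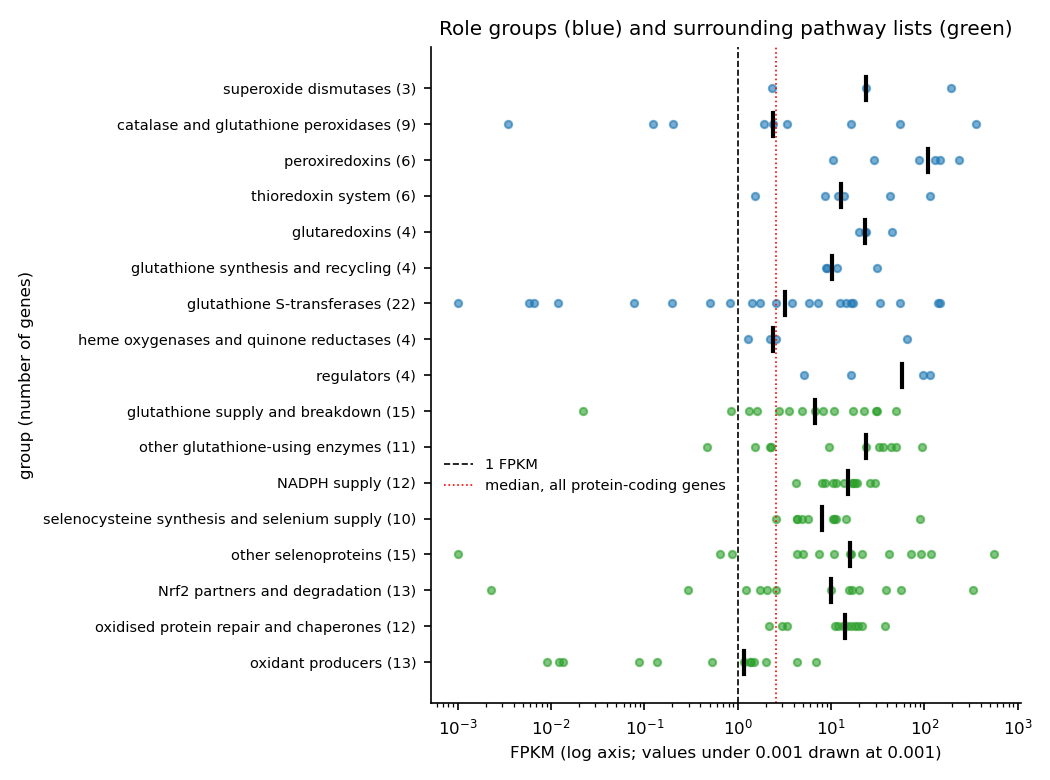
FPKM on a log axis of the genes of the 9 role groups (blue) and the 8 pathway lists (green), 1 point per gene, with each group's median as a black bar, 1 FPKM as a dashed line and the median of all protein-coding genes, 2.59 FPKM, as a dotted line. The peroxiredoxins have the highest median at 109 FPKM and the oxidant producers the lowest at 1.18 FPKM.

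Promoter CpG content varied with level among these genes. For a gene with several windows, the ratio used is the median over them. The ratio of observed to expected CpG had a median of 0.670 over the 44 detected genes with a window and 0.169 over the 11 undetected ones, beside 0.758 and 0.218 for detected and undetected protein-coding genes in general. Across the 55 genes Spearman's rho between this ratio and FPKM was 0.62, given as a description, since the points share 1 table and paralogs share sequence. A ratio under 0.3, a cut chosen with these ratios in view, was found in 9 of the 11 undetected (81.8%) and 6 of the 44 detected genes (13.6%). Among all protein-coding genes with a window the shares were 62.6% of 6842 undetected and 7.79% of 9722 detected genes, so the split is a general one and nothing particular to the antioxidant genes is read from it. Gsto2 was the clearest exception among the undetected, with a ratio of 0.830 over 2 windows at 0.4999 FPKM, beside 0.583 for Gsto1 at 17.0 FPKM. Glrx was an exception of the other kind, with a ratio of 0.213 over 2 windows at 19.8 FPKM. DNA methylation at these windows was not analysed here.

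**Figure D5:**
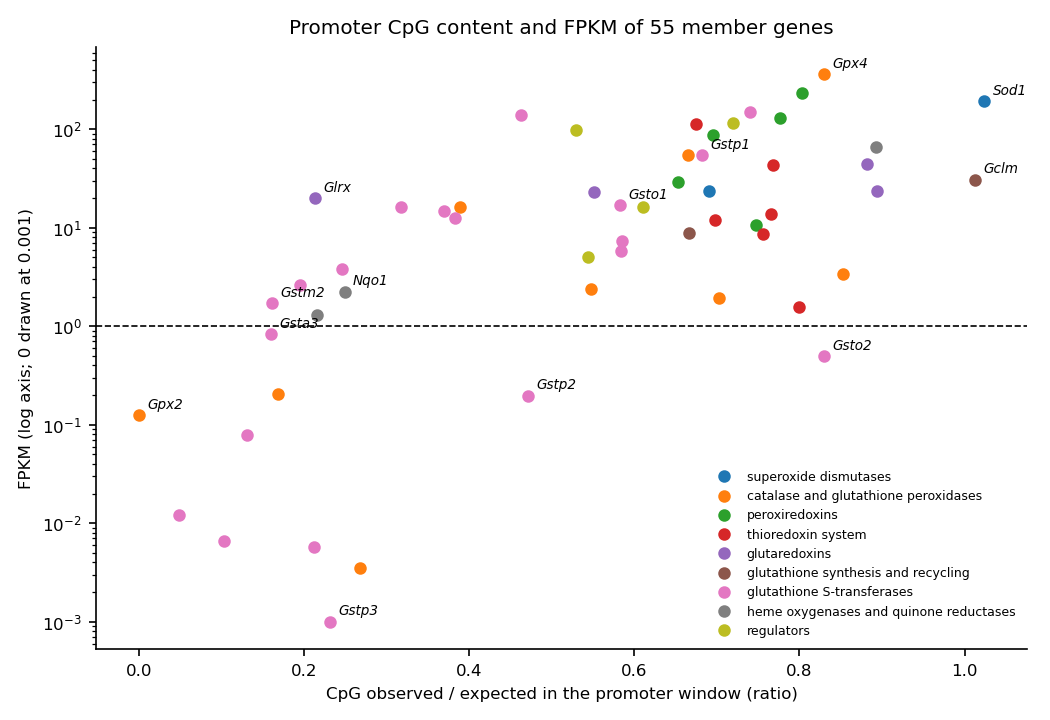
FPKM on a log axis against the ratio of observed to expected CpG in the promoter window for the 55 genes with a window, 1 point per gene, coloured by role, with 1 FPKM as a dashed line and 0 drawn at 0.001. Most points under the line lie at ratios under 0.3, with Gsto2 at 0.830 and Gstp2 at 0.471 as the exceptions.

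Markers of the tissue were checked with 7 lists of 5 genes each, and all 35 were detected. Medians were 303 FPKM for neurons, 96.7 for oligodendrocytes, 38.5 for astrocytes, 16.9 for microglia, 9.37 for red blood cells, 8.57 for choroid plexus and 3.47 FPKM for endothelium. Ttr, a choroid plexus gene, stood at 566 FPKM, with the other four of that list between 3.68 and 12.5 FPKM. The part of these cell types in the level of any antioxidant gene was not tested, and in such bulk RNA fewer cells of a type and less RNA per cell cannot be told apart. In RefSeq, 19 of the 62 genes overlap another annotated gene.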

How the data were processed

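RNA of the medial prefrontal cortex was measured by RNA-seq. The authors deposited FPKM per Ensembl gene, made with CASAVA 1.8.2, TopHat and Cufflinks on mm10, per the submitters' processing notes. The sources used here give neither the annotation, the handling of strand nor how the 3 replicates were combined. The 2 value columns are equal in 46073 of 46073 rows and were counted as 1 sample, so the comparisons have no test, and the planned leaving out of libraries could not be run. Depth is unknown, so no interval or detection limit is given.

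Symbols came from a table of Ensembl identifiers (45139 rows named), and classes, positions and promoter windows from RefSeq GRCm38.p6, matched by symbol. Genes were chosen by symbol pattern and put in 9 role groups. The members, the 31 pairs and the 8 pathway and 7 marker lists were chosen with earlier results of these data known. All members are accounted for, and of each pathway list the 3 highest and 2 lowest genes are named; other genes named were picked for their tie to a member. A floor of 1 FPKM, a pseudocount of 1 and a limit of 2-fold were used, and geometric means come from log2(FPKM + 1). The planned comparison of protein sequences was not run. Motif scan and list summaries were tested on simulated data. Alternatives covered the floor, the scaling, the pseudocount, the summary and the background. Python 3.11.15, numpy 2.4.6, pandas 2.3.3, Biopython 1.88 and matplotlib 3.10.9 were used.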

Additional observations from a re-analysis of the deposited data

How the results depend on the processing

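The number of detected genes stayed within 1.5 times of 51 under the other floors and the rescaling. It was 52 at a floor of 0.5 FPKM, 46 at 2 FPKM and 53 after rescaling without mitochondrial rows. Without the Gsta, Gstm, Gstp and Gstt genes 40 of 44 (90.9%) were detected, against 82.3% of the 62. No background share is given at the floors of 0.5 and 2 FPKM or after the rescaling, which raises the background rows too. The counts at those settings are therefore not set against a background. The background share detected was 31.5% over all rows and 58.6% over protein-coding rows. The median of the 62 genes, 11.8 FPKM, was 10.8 as a geometric mean, 16.3 over detected genes, 15.5 without those transferases and 29.9 after rescaling, which multiplies every value by 2.54 (1.34 on the log2 scale) and leaves ratios as they are. Geometric means by role were 24.3 FPKM for superoxide dismutases, 5.50 for catalase and glutathione peroxidases, 71.0 for peroxiredoxins, 16.0 for the thioredoxin system, 26.5 for glutaredoxins, 13.1 for glutathione synthesis and recycling, 4.801 for glutathione S-transferases, 5.48 for heme oxygenases and quinone reductases and 32.1 for regulators. The peroxiredoxins were highest by either summary. Of the 31 pairs, 22 to 24 were apart under the other pseudocounts and the 1.5-fold limit, and 17 of the 26 pairs with both genes detected. Of 51 detected counts by role or pathway list under the other floors and the rescaling, 50 stayed within 1.5 times; the oxidant producers fell from 7 to 3 at 2 FPKM. The motif TGANNNNGC, added after the data were seen, was in 50.9% of the 55 genes and 45.7% of protein-coding genes with a window. No paired analysis was possible because the table holds 1 RNA sample with no second group. No sensitivity to depth could be examined, since the table holds no counts.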
